A study of Homo sapiens with 12 samples.

Results

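Givinostat given alone was compared with untreated control in HDLM-2 cells, a human cell line established from Hodgkin lymphoma. The comparison rests on 6 of the 12 arrays of the series: 3 arrays of control cells, which received neither drug, and 3 arrays of cells kept for 24 h in 100 nM givinostat. The other 6 arrays held cells treated for 24 h with 5 µM sorafenib, a multikinase inhibitor, or with sorafenib and givinostat together at the same doses, and they are used here to ask how the givinostat response read on separate arrays. The arrays of a group carry the letters A, B and C. All of them come from this single line grown in flasks, so they hold no stroma and describe no other Hodgkin line. Separate cultures are not stated for the arrays within a group, and every p-value therefore measures the spread between these arrays, which may be technical.

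Histone deacetylases remove acetyl groups from lysines of histones and of other proteins, and they act largely within corepressor complexes that transcription factors bring to promoters. Givinostat is a hydroxamate that inhibits deacetylases of classes I and II, and such inhibitors raise some genes and lower others. Classical Hodgkin lymphoma cells are B cell derived in most cases, have lost most of the B cell programme, and depend on active NF-kappaB and JAK-STAT signalling, and the HDLM-2 line is known to carry T lineage features.

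The measurement was the normalised signal of the probe that stands for each gene on an Illumina HumanHT-12 V3 bead array, on the log2 scale, where a difference of 1 is a 2-fold change. Levels can be compared between arrays for 1 gene, not between genes. A gene was called when its adjusted p, from limma with Benjamini-Hochberg adjustment over all 10529 genes tested, was under 0.05. Changes are givinostat minus control with their standard error (SE), with n = 3 arrays in each group. Where all arrays of a group left a gene at background, its change is given as at least so many fold, against the background limit of those arrays. In extracts of whole cultures, fewer cells that express a gene and less RNA of it per cell cannot be told apart.

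The 6 arrays were of even quality. Mean raw intensity lay between 1270.3 and 1629.7 units, and 16522 to 17187 probes were above background. Each array correlated with the others of its own group at a mean of 0.9929 to 0.9936 across genes, and with those of the other group at 0.9737 to 0.9753. Of 10 markers of Hodgkin cells, 9 were tested and all 9 were above background on all 6 arrays (IL13 did not enter). Markers of other cell types were present in part. PAX5, CD79A, CD3E, CD14 and LYZ were not among the genes tested, which can also mean that no probe carried the symbol. Of the listed genes on the array, 15 of 36 B lineage and 12 of 34 T lineage genes were above background on all control arrays. So were 10 of 30 fibroblast, endothelial and epithelial genes and 5 of 33 myeloid and natural killer genes. The same numbers were above background on all givinostat arrays. The summed linear signal of the T lineage list was 73070 to 77610 on the control arrays and 85780 to 86970 on the givinostat arrays, and that of the B lineage list 76670 to 82530 and 87250 to 88070. That of the erythroid and megakaryocytic list ran the other way, from 51330 to 53850 on the control arrays and from 41520 to 45810 on the givinostat arrays. Of its genes 3 were above background on all control arrays and 6 on all givinostat arrays. Of its 7 genes tested, 1 was called higher (HBD) and 1 lower (TFRC), with a median change of 0.59. Only 3 of the 7 were above background on all 6 arrays. The others entered through a treated group, so the filter largely fixed these counts and the median. The call of TFRC was lost on leaving out any of the 6 compared arrays and under median scaling. In summed signal the 2 groups of arrays did not overlap for the T lineage, B lineage and erythroid lists. They overlapped for the fibroblast, endothelial and epithelial list, at 72510 to 76530 in control and 72330 to 74230 with givinostat. The part of any of these lists in the results below was not tested.

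The promoters of 3 of the largest rises and 3 of the largest falls, and of CDKN1A, a gene long used as a reporter of deacetylase inhibition through the GC boxes of its promoter, are shown first. Each line holds the 200 bases before the annotated start, 5′ to 3′ on the gene's strand, from RefSeq in build GRCh38.p14; capitals mark GC boxes (GGGCGG or CCGCCC) and TATA boxes (TATAAA or TTTATA).
SELENOP: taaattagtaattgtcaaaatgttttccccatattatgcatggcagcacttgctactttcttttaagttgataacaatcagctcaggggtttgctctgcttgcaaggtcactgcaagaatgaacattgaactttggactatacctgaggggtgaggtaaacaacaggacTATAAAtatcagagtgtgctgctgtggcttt
COXFA4L3: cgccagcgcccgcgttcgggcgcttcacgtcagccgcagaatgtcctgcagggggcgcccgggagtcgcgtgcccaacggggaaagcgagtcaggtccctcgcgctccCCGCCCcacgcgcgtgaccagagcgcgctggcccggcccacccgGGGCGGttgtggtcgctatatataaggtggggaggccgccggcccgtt
AKR1C3: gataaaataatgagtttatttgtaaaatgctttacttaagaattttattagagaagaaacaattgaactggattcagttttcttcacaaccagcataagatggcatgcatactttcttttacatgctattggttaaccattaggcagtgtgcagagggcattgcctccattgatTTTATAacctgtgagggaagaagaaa
IGLL1: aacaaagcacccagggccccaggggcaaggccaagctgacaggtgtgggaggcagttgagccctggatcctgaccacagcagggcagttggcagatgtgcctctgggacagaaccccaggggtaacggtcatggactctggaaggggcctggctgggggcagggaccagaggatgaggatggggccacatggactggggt
AGMAT: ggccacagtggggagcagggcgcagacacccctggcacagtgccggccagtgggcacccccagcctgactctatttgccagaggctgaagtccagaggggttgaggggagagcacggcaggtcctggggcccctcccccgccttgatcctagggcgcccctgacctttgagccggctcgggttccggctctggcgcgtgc
GAS1: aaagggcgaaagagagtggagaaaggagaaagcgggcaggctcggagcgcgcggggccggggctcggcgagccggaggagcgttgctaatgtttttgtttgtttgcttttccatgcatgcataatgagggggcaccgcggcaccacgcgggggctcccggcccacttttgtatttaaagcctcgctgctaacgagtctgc
CDKN1A: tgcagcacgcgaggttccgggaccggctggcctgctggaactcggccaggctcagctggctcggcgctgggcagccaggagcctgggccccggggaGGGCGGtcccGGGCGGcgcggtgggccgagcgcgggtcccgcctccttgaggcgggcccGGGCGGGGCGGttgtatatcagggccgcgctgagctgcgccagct

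These promoters differed in composition, also among the genes that rose. The SELENOP window (chr5:42811893-42812092, minus strand) held 1 TATA box and no GC box, and the 300 bases around its start held 1 CpG. The AKR1C3 window (chr10:5048581-5048780, plus strand) likewise held 1 TATA box, and 0 CpG over 300 bases. COXFA4L3 (chr15:45430410-45430609, plus strand) had 2 GC boxes and 45 CpG, and CDKN1A (chr6:36678514-36678713, plus strand) had 4 GC boxes, which overlap in part, and 29 CpG. Among the falls, IGLL1 (chr22:23580291-23580490, minus strand) had 2 CpG, AGMAT (chr1:15585052-15585251, minus strand) 19 and GAS1 (chr9:86947507-86947706, minus strand) 26, and none of these 3 windows held either box. Of the 27305 promoters of 300 bases in the table, 44.6% hold a GC box and 12% a TATA box on either strand. A match describes letters and is no evidence of binding, and windows without a match say nothing about any factor.

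Givinostat changed the signal of a large share of genes by small amounts and of a smaller set by a large amount. Of 10529 genes, 3509 were called (33.3%), 1856 higher (17.6%) and 1653 lower (15.7%). The median change over all genes was -0.02 on the log2 scale with quartiles of -0.26 and 0.25, and 1405 called genes (40.0%) changed by under 0.5. A change of at least 2-fold was called in 456 genes (4.33%), of which 341 were higher (3.24%) and 115 lower (1.09%). This count depends on the background correction: without it 147 genes passed, 120 higher and 27 lower, and 148 genes passed on the authors' processed values. Scaling each array to its median in place of quantile normalization moved the median change of all genes to -0.12, and the 3102 calls then split into 1106 higher and 1996 lower. The balance of rises and falls is therefore read relative to each scale. The 3 and 3 arrays did not overlap in 5097 genes (48.4%).

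**Figure D1:**
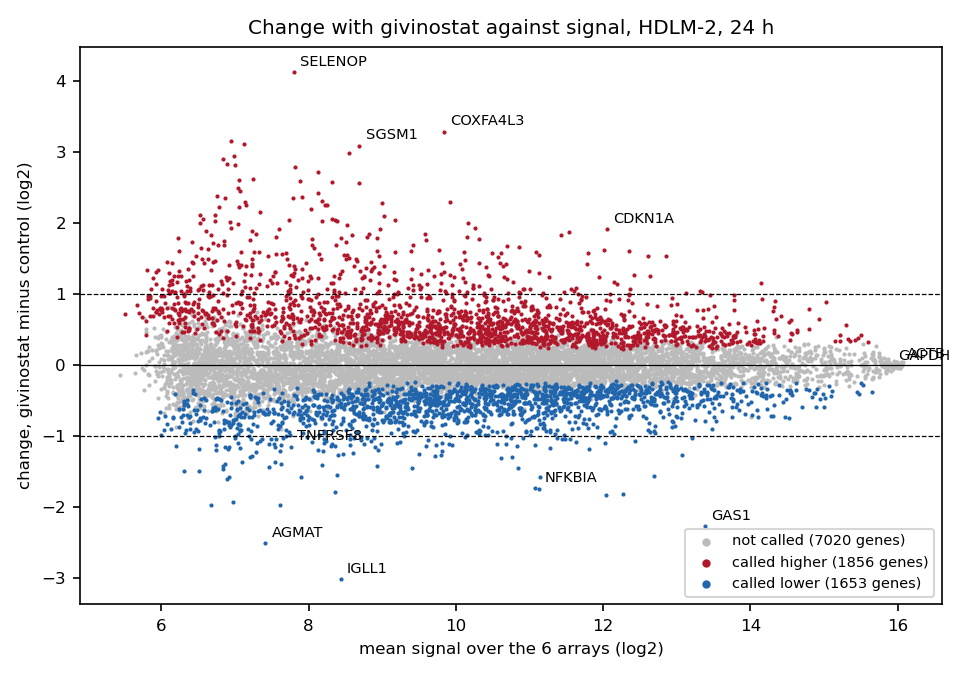
Each point is 1 of 10529 genes: its mean signal over the 6 arrays (log2, horizontal) against its change, givinostat minus control (log2, vertical), with 1856 genes called higher in red, 1653 called lower in blue and dashed lines at a 2-fold change. The large rises lie mostly at low signal; SELENOP, at the top, is plotted against control arrays at background, where its change has only a bound of at least 12.4-fold. ACTB and GAPDH lie near 0, at the bright end of the range.

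The share of large rises was greatest among dim genes. When genes were divided into 5 equal groups by their mean signal over all 12 arrays, 6.89% of the dimmest group and 0.665% of the brightest were at least 2-fold higher, with 4.51%, 2.71% and 1.42% in between. From dim to bright, 16.3%, 18.1%, 20.3%, 18.3% and 15.1% of the genes were called higher at any size, so the share of calls had no such order. Of the genes tested, 113 were above background on all 3 givinostat arrays and on 0 control arrays, and 108 of them were called higher; these entered the test through the givinostat or another treated group, so their direction was largely fixed by the filter. The reverse pattern, 3 control and 0 givinostat arrays, was seen in 42 genes, of which 31 were called lower.

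SELENOP, which encodes the plasma selenium carrier selenoprotein P, rose most. Its signal was 5.66, 5.98 and 5.60 on the control arrays A, B and C and 9.99, 9.73 and 9.87 on the givinostat arrays. No control array was above background, every givinostat array was, and the gene was at least 12.4-fold higher (adjusted p = 1.78e-08). The selenoprotein list it belongs to did not follow it: of 20 tested, 4 were higher and 4 lower, with a median of -0.07. On that list SEPHS1, a selenophosphate synthetase homologue, fell by 0.97 ± 0.10 (adjusted p = 2.56e-05) and TXNRD2, a mitochondrial thioredoxin reductase, fell by 0.80 ± 0.16 (adjusted p = 0.00292).

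COXFA4L3, a paralogue of the cytochrome c oxidase subunit gene COXFA4, read 8.05, 8.26 and 8.27 on the control arrays and 11.36, 11.7 and 11.37 on the givinostat arrays. It was above background throughout and rose by 3.28 ± 0.12 (adjusted p = 1.55e-08), although its 3 probes gave rises from 1.38 to 3.28. SGSM1, a modulator of small GTPases, read 7.14, 7.22 and 7.07 in control and 10.17, 10.27 and 10.25 with givinostat. The array values of SGSM1 hardly spread within a group, and its rise was 3.09 ± 0.11 (adjusted p = 1.48e-08). SLC44A2, a choline transporter-like gene, read 7.15, 6.85 and 7.16 in control and 10.08, 10.04 and 9.98 with givinostat.

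AKR1C3, which encodes an aldo-keto reductase that acts on steroids and prostaglandins, was not above background on any control array (5.38, 5.42 and 5.32) and read 8.44, 8.77 and 8.38 with givinostat. It was at least 4.90-fold higher (adjusted p = 1.55e-08), while its family member AKR1C4 fell by 1.20 ± 0.16 (adjusted p = 1.52e-04). The probes of AKR1C4 disagreed in size, from -1.20 to -0.17. Of 18 aldo-keto and short-chain reductase genes, 7 were higher and 4 lower (4 and 4 under median scaling), with HSD17B8, a short-chain dehydrogenase, up by 1.38 ± 0.09 and the carbonyl reductase CBR3 down by 0.93 ± 0.09 (log2 change -0.93).

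Among the other leading rises were genes of zinc finger proteins, membrane proteins and long non-coding RNAs. ZNF365 was at least 5.46-fold higher and ZNF467 at least 4.54-fold, both moving from 0 to 3 arrays above background. ANTXR2, the receptor of capillary morphogenesis and of anthrax toxin, read 7.39, 6.86 and 6.04 in control and 9.50, 9.52 and 9.41 with givinostat, and its rise of 2.71 ± 0.25 (adjusted p = 1.09e-05) came with the widest control spread of the 15. HBD, the delta globin gene, read 6.06, 5.75 and 6.01 in control and 8.63, 8.57 and 8.46 with givinostat, at least 4.98-fold higher. The other globin genes tested had log2 changes of 0.59 for HBE1, 0.67 for HBG1 and 0.82 for HBG2 and were not called, and the defining erythroid genes HBA1, HBB, ALAS2 and GATA1 were not among the genes tested. ASAP3, an Arf GTPase activator, rose by 2.59 ± 0.18 (adjusted p = 1.00e-06), and ERICH3 and ANKRD22 were at least 4.21-fold and 4.17-fold higher.

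Of the falls, that of IGLL1 was the largest. IGLL1 encodes the lambda 5 chain of the surrogate light chain of B cell precursors, and its signal was 9.79, 10.19 and 9.84 on the control arrays and 6.88, 7.02 and 6.90 on the givinostat arrays. It stayed above background on all 6 arrays and fell by 3.01 ± 0.17 (adjusted p = 2.57e-07). AGMAT, the agmatinase gene, read 8.47, 8.98 and 8.54 in control and 6.49, 5.61 and 6.39 with givinostat, where array B was at background, and fell by 2.50 ± 0.21. GAS1, a membrane protein named for growth arrest and known as a hedgehog co-receptor, read 14.38, 14.43 and 14.72 in control and 12.11, 12.16 and 12.47 with givinostat. Its 2 probes had log2 changes of -2.26 and -2.40, and the gene remained bright in both groups.

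KCTD15, a BTB domain gene, and SAMD10 were detected in control only and fell at least 2.65-fold and 2.71-fold. MOK, a kinase of the MAP kinase superfamily, read 13.09, 13.15 and 13.26 in control and 11.41, 11.33 and 11.34 with givinostat. KRTAP17-1, a keratin-associated protein gene, read 13.05, 12.96 and 12.87 in control and 11.23, 11.04 and 11.13 with givinostat. Neither gene's groups of arrays came near each other, with falls of 1.81 ± 0.10 for MOK and 1.82 ± 0.09 for KRTAP17-1. NCF1, a cytosolic subunit of the phagocyte NADPH oxidase, fell by 1.78 ± 0.15 (adjusted p = 7.07e-06); near-identical copies of NCF1 exist in the genome, so its probe may read more than 1 locus. EMILIN1, a matrix glycoprotein gene, NGEF, a guanine nucleotide exchange factor gene, RGS3, a regulator of G protein signalling, and PRKAR1B, a regulatory subunit of protein kinase A, completed the largest falls at 1.57 to 1.96 (log2 changes of EMILIN1 -1.96, NGEF -1.93, RGS3 -1.57 and PRKAR1B -1.57).

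**Figure D2:**
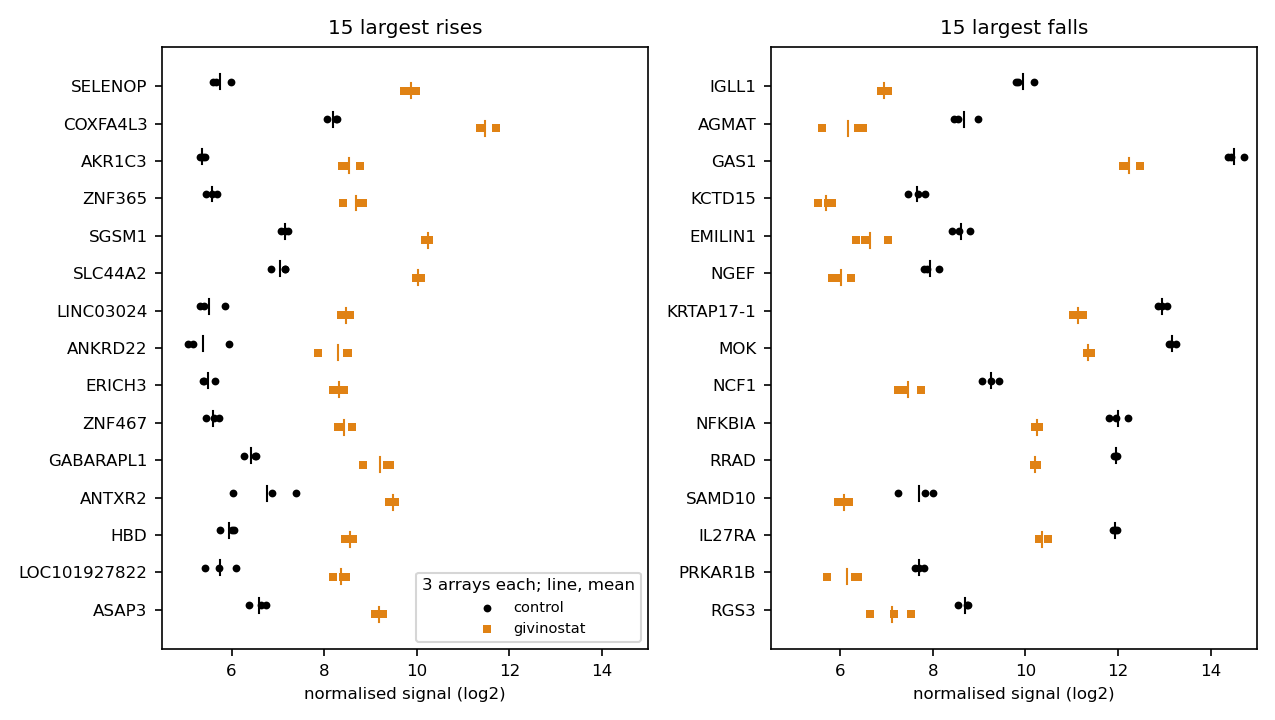
Normalised signal (log2, horizontal) on each of the 3 control arrays (black circles) and 3 givinostat arrays (orange squares) for the 15 largest rises (left) and the 15 largest falls (right) among called genes without overlap; vertical ticks are group means. In SELENOP the control arrays read 5.60 to 5.98 and the givinostat arrays 9.73 to 9.99, and in no gene of either panel do the groups overlap.

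The deacetylase genes, among them those of the enzymes givinostat inhibits, showed small changes. Of 14 tested, sirtuins included, 2 were higher, 2 lower and 10 not called, close to the shares of 17.6% and 15.7% over all genes. HDAC6, the cytoplasmic deacetylase of tubulin, read 9.49, 9.5 and 9.41 in control and 10.09, 10.01 and 9.85 with givinostat, a rise of 0.52 ± 0.09 (adjusted p = 0.0011). HDAC3, the catalytic partner of the NCoR complexes, rose by 0.32 ± 0.09 and SIRT1, a deacetylase that uses NAD, fell by 0.40 ± 0.12, and each call was lost without any of 3 arrays; that of HDAC3 was also lost under median scaling (adjusted p = 0.401). HDAC1 and HDAC2, the nuclear class I enzymes, changed by 0.00 ± 0.10 (adjusted p = 0.988) and 0.23 ± 0.12 (adjusted p = 0.146), and HDAC8 by 0.32 ± 0.17 (adjusted p = 0.184). The class II genes HDAC4, HDAC5, HDAC9 and HDAC10 had log2 changes of 0.00, -0.30, -0.38 and 0.28 and were not called. SIRT7, a nucleolar sirtuin, fell by 0.63 ± 0.21 (adjusted p = 0.0385). Its control and givinostat arrays overlapped, and its call was lost when only the compared groups were fitted.

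Genes of the acetylation and methylation machinery were called lower more often than higher. Of 18 acetyltransferase and bromodomain genes 0 were higher and 6 lower (33.3%), with a median of -0.16, led by KAT2A, the acetyltransferase of the SAGA complex. KAT2A read 11.96, 12.1 and 12.23 in control and 11.25, 11.13 and 11.27 with givinostat, and fell by 0.89 ± 0.12 (adjusted p = 1.75e-04). BRPF3, a scaffold of an acetyltransferase complex, fell by 0.65 ± 0.12 (adjusted p = 0.00176). Of 30 DNA and histone methylation genes 2 were higher and 9 lower. UHRF1, which brings the maintenance methyltransferase to replicated DNA, fell from 13.79, 13.57 and 13.78 to 12.66, 12.77 and 12.63, by 1.02 ± 0.09 (adjusted p = 7.57e-06). KDM5B, a demethylase of histone H3 lysine 4, went the other way, from 6.30, 6.88 and 6.40 to 8.19, 8.20 and 7.98, a rise of 1.59 ± 0.20 (adjusted p = 8.62e-05).

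Replication-dependent histone genes were called higher more often than lower, and corepressor genes kept no direction across scalings. Of 31 replication-dependent histone genes 9 were higher and 1 lower (median 0.23, and 0.20 with 6 higher under median scaling), among them H2BC5 at 0.77 ± 0.10 (adjusted p = 1.57e-04) and H2BC8 at 0.68 ± 0.12 (adjusted p = 0.00133); their sequences are alike, so probes may read several copies. Of 10 linker and replacement histone genes 1 was higher and 1 lower, with a median of 0.01. H1-10, a replacement linker histone gene, rose by 0.72 ± 0.11 (adjusted p = 4.04e-04), and MACROH2A2 was the gene called lower. Of 26 corepressor genes 7 were higher and 1 lower with a median of 0.06, but under median scaling 2 were higher and 3 lower with a median of -0.10, near the -0.12 of all genes. TBL1X, a subunit of the NCoR and SMRT complexes, rose by 0.90 ± 0.10 (adjusted p = 4.07e-05).

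Most genes of DNA replication were called lower, and most genes of mitosis were not called. Of 39 G1/S and DNA replication genes 28 were lower (71.8%, against 15.7% of all genes) and 1 higher, with a median of -0.44; outside the naming rule, the gene that rose was RPA3, chosen after its value was seen. PCNA, the sliding clamp of the replication fork, read 13.01, 13.18 and 13.01 in control and 12.18, 12.2 and 12.1 with givinostat, a fall of 0.91 ± 0.11 (adjusted p = 5.90e-05). CDC45, part of the replicative helicase, fell by 0.81 ± 0.09 (adjusted p = 3.20e-05), CHAF1A, a chromatin assembly factor subunit, by 0.81 ± 0.15 (adjusted p = 0.00164), and PRIM2, a primase subunit, by 0.91 ± 0.22 (adjusted p = 0.00667). Of 50 G2/M and mitosis genes 3 were higher and 5 lower with a median of 0.04, and under median scaling 1 was higher and 11 lower with a median of -0.11. MKI67, the proliferation marker, changed by 0.15 ± 0.19 (adjusted p = 0.577), and FOXM1, a mitotic transcription factor, fell by 0.54 ± 0.11 (adjusted p = 0.00298).

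Nucleotide synthesis and DNA repair genes also had more falls than rises. Of 27 nucleotide synthesis genes 15 were lower and 0 higher (median -0.35), including CAD, the multifunctional enzyme that starts pyrimidine synthesis, at -0.93 ± 0.11 (adjusted p = 7.04e-05), PFAS of purine synthesis at -0.83 ± 0.10 (adjusted p = 5.35e-05) and RRM2, a ribonucleotide reductase subunit, at -0.79 ± 0.15 (adjusted p = 0.0014). DHODH, the mitochondrial pyrimidine enzyme, was at background on every givinostat array, a fall of at least 1.80-fold (adjusted p = 0.0065). Of 32 DNA repair genes 13 were lower and 1 higher (median -0.27). UNG, the uracil glycosylase gene, read 13.72, 13.67 and 13.74 in control and 12.43, 12.33 and 12.55 with givinostat, a fall of 1.27 ± 0.09 (adjusted p = 1.33e-06), and BRCA1 fell by 1.00 ± 0.17 (adjusted p = 0.00102).

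Inhibitors of the cell cycle were mostly higher. CDKN1A, which encodes the p21 inhibitor of cyclin-dependent kinases, read 11.09 on each of the 3 control arrays and 12.88, 13.17 and 12.95 with givinostat, and its 2 probes rose by 1.91 and 2.82. CDKN2B, the p15 gene, rose by 1.05 ± 0.14 (adjusted p = 1.53e-04) and CDKN2D, the p19 gene, by 0.63 ± 0.11 (adjusted p = 0.00107), and 4 of the 6 inhibitor genes tested were higher, the other being CDKN3, a phosphatase whose call was lost under median scaling (adjusted p = 0.0684). CDKN1A is also a target of p53, but the p53 list did not rise with it: of 25 tested, 1 was higher and 6 lower. Of the MYC network, the antagonist MXI1 rose by 1.15 ± 0.14 (adjusted p = 8.61e-05), MYCN rose by 1.41 ± 0.23 (adjusted p = 6.27e-04), and MYC changed by -0.23 ± 0.11 (adjusted p = 0.126). CDK4, the partner of D cyclins, fell by 0.60 ± 0.07 (adjusted p = 9.31e-05).

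Most genes of ribosome assembly were called lower, and few genes of the cytosolic ribosome itself were called. Of 43 nucleolar ribosome biogenesis genes 31 were lower (72.1%) and 0 higher, with a median of -0.46. RRP12, needed for export of ribosomal subunits, read 10.58, 10.75 and 10.6 in control and 9.65, 9.78 and 9.56 with givinostat, a fall of 0.98 ± 0.12 (adjusted p = 7.58e-05), and MRTO4, a ribosome assembly factor, fell by 0.99 ± 0.16 (adjusted p = 6.33e-04). Of 66 cytosolic ribosomal protein genes 2 were higher and 2 lower, with a median of -0.01 (0.01 under median scaling). Of 76 mitochondrial ribosomal protein genes 28 were lower (36.8%) and 0 higher, with a median of -0.25 and MRPL9 at -0.77 ± 0.10 (adjusted p = 1.44e-04). Oxidative phosphorylation genes had 2 higher and 9 lower of 66. That share of falls, 13.6%, was near the 15.7% of all genes. CYC1, a cytochrome c1 gene, fell by 0.78 ± 0.14 (adjusted p = 0.00144).

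The machinery of RNA splicing and protein turnover also leaned lower. Of 48 spliceosome genes 15 were lower and 0 higher (median -0.22), with SNRPA1, a U2 snRNP protein gene, at -0.57 ± 0.09 (adjusted p = 5.92e-04). Of 30 proteasome genes 12 were lower and 0 higher (median -0.25), and of 33 aminoacyl-tRNA synthetase genes 9 were lower and 0 higher (median -0.14). Cytosolic heat shock and chaperonin genes had 2 higher and 9 lower of 28, with HSPH1, a nucleotide exchange factor of HSP70, at -0.73 ± 0.09 (adjusted p = 6.08e-05). Of 26 endoplasmic reticulum chaperone and unfolded protein genes 6 were higher and 2 lower, and 2 and 2 under median scaling.

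Small nucleolar RNAs, which guide the chemical modification of ribosomal RNA, had the lowest median of the RNA classes with 20 or more genes. Of 40 tested, 13 were lower (32.5%) and 1 higher, with a median of -0.29, and none changed 2-fold. SNORA70 read 10.73, 10.79 and 10.72 in control and 10.32, 10.11 and 10.35 with givinostat (-0.48 ± 0.10, adjusted p = 0.00288). Long non-coding RNAs showed the opposite balance: of 117, 37 were higher (31.6%) and 7 lower. ATP2B1-AS1 read 8.65, 8.27 and 8.79 in control and 10.28, 9.86 and 10.63 with givinostat, a rise of 1.69 ± 0.18 (adjusted p = 3.66e-05), and PPP3CA-DT rose by 1.36 ± 0.09 (adjusted p = 1.02e-06). These examples were chosen after their values were seen, and LINC03024 and LOC101927822, at least 4.69-fold and 4.34-fold higher, are in the same class. Most small nucleolar RNAs are encoded in introns of host genes, and which transcript their probes read was not tested.

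**Figure D3:**
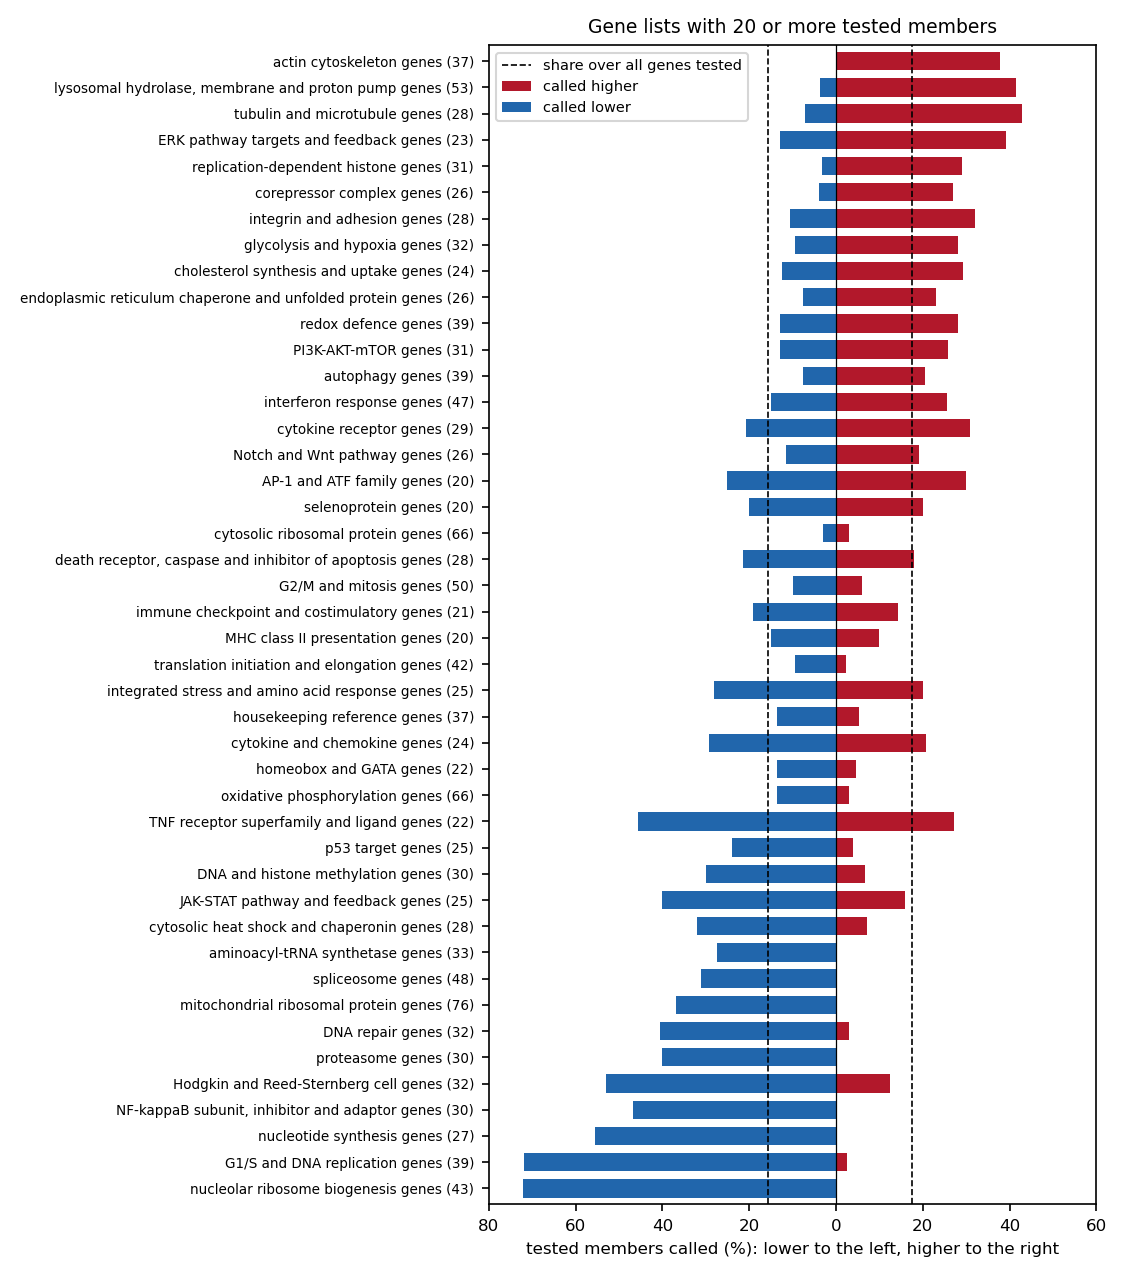
Share of tested members called higher (red, to the right) and lower (blue, to the left) in each gene list with 20 or more tested members, whose number is in brackets; dashed lines are the shares over all 10529 genes, 17.6% and 15.7%. Nucleolar ribosome biogenesis genes stand at 72.1% lower at the foot, and actin cytoskeleton genes at 37.8% higher and 0% lower at the top.

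Genes of the actin and microtubule cytoskeleton were called higher more often than all genes. Of 37 actin cytoskeleton genes 14 were higher (37.8%) and 0 lower, with a median of 0.22 (10 higher and a median of 0.09 under median scaling). MYH10, a non-muscle myosin heavy chain gene, read 5.98, 6.40 and 6.43 in control and 8.34, 8.46 and 8.47 with givinostat, a rise of 2.15 ± 0.13 (adjusted p = 3.38e-07). PFN2, a profilin, went from 9.31, 9.55 and 9.03 to 11.09, 11.39 and 11.18, a rise of 1.93 ± 0.13 (adjusted p = 9.33e-07). CRIP2, a LIM domain gene, was at least 3.51-fold higher and TPM1, a tropomyosin, rose by 1.60 ± 0.11 (adjusted p = 8.48e-07).

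Of 28 tubulin and microtubule genes 12 were higher and 2 lower (median 0.20), and 7 and 2 under median scaling. KIF21B and KIF5C, kinesin motors known from neurons, rose by 1.56 ± 0.16 (adjusted p = 2.51e-05) and 1.40 ± 0.12 (adjusted p = 7.70e-06), and MAPRE3, a protein of microtubule ends, by 1.44 ± 0.13 (adjusted p = 1.11e-05). Genes typical of neurons and neuroendocrine cells had 4 higher and 1 lower of 19. The share of rises, 21.1%, was near the 17.6% of all genes. APLP1, an amyloid precursor-like gene of that list, rose by 1.36 ± 0.12 (adjusted p = 8.12e-06). Of 28 integrin and adhesion genes 9 were higher and 3 lower. ITGB7, the beta 7 integrin of gut homing, read 11.87, 11.83 and 11.83 in control and 13.36, 13.42 and 13.35 with givinostat, a rise of 1.53 ± 0.08 (adjusted p = 2.57e-07), and CDH1, the E-cadherin gene, fell by 0.94 ± 0.09 (adjusted p = 2.13e-05).

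Lysosomal genes were another group with many rises. Of 53 hydrolase, membrane and proton pump genes 22 were higher (41.5%) and 2 lower, with a median of 0.25, and under median scaling 12 were higher and 3 lower with a median of 0.13. LGMN, the asparaginyl protease legumain, read 7.91, 7.76 and 8.02 in control and 9.20, 9.5 and 9.49 with givinostat, a rise of 1.5 ± 0.15 (adjusted p = 1.88e-05). MANBA and GLB1, which remove mannose and galactose from glycans, rose by 0.89 ± 0.11 (adjusted p = 1.07e-04) and 0.78 ± 0.10 (adjusted p = 9.49e-05). Of 39 autophagy genes 8 were higher (20.5%, near the 17.6% of all genes) and 3 lower (5 and 5 under median scaling). Within that list GABARAPL1, an ATG8 protein of the autophagosome membrane, went from 6.52, 6.27 and 6.5 to 9.43, 9.36 and 8.84. Its relative MAP1LC3A rose by 1.24 ± 0.10 (adjusted p = 5.16e-06).

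Genes of lipid export and of sterol synthesis both included rises. ABCA1, which exports cholesterol to apolipoproteins, read 5.96, 5.72 and 6.46 in control, where 1 array was above background, and 8.05, 8.24 and 7.79 with givinostat, a rise of 1.98 ± 0.21 (adjusted p = 2.59e-05). Of 15 cholesterol efflux and lipid storage genes 7 were higher and 2 lower (4 and 3 under median scaling), with the lysosomal lipase LIPA at 0.77 ± 0.10 (adjusted p = 1.05e-04). Of 24 cholesterol synthesis and uptake genes 7 were higher and 3 lower, and their median of 0.08 became -0.03 under median scaling; TM7SF2, a sterol reductase, rose by 1.08 ± 0.09 (adjusted p = 5.61e-06) and SREBF1, the sterol-responsive transcription factor, by 0.93 ± 0.10 (adjusted p = 3.01e-05).

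NF-kappaB signalling genes that were called had all fallen, and the others did not pass the test. Of 30 subunit, inhibitor and adaptor genes 14 were lower (46.7%), 0 higher and 16 not called, with a median of -0.34. NFKBIA, which encodes the inhibitor that holds NF-kappaB in the cytoplasm and is itself an NF-kappaB target, read 11.81, 11.96 and 12.22 in control and 10.28, 10.2 and 10.29 with givinostat. Its relative NFKBIE fell by 1.27 ± 0.12 (adjusted p = 1.52e-05), and RELB, the transactivating subunit of the non-canonical pathway, went from 11.59, 11.58 and 11.52 to 10.12, 10.2 and 10.04. TRAF1, an adaptor of receptors of the TNF family, fell by 0.64 ± 0.10 (adjusted p = 4.78e-04). TNIP2, an inhibitor that binds A20, fell by 1.00 ± 0.17 (adjusted p = 7.30e-04).

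Receptors and ligands of the TNF superfamily moved in both directions: of 22 tested, 6 were higher and 10 lower. LTA, the lymphotoxin alpha ligand, read 13.38, 13.39 and 13.62 in control and 11.82, 12.04 and 11.85 with givinostat, a fall of 1.56 ± 0.11 (adjusted p = 1.17e-06), and its partner LTB fell by 1.31 ± 0.15 (adjusted p = 4.53e-05). TNFRSF8, the CD30 receptor that defines Hodgkin cells, read 8.37, 7.94 and 8.68 in control and 7.03, 6.91 and 7.61 with givinostat. Its spread within groups was wide and the groups did not overlap (-1.15 ± 0.22, adjusted p = 0.00191). The death receptor family member TNFRSF21 rose instead, from 7.09, 7.58 and 7.20 to 9.33, 9.30 and 9.43 (2.06 ± 0.12, adjusted p = 3.58e-07), and TNFRSF12A, the TWEAK receptor, by 1.45 ± 0.13 (adjusted p = 7.64e-06).

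Of 32 Hodgkin and Reed-Sternberg cell genes 17 were lower (53.1%) and 4 higher, with a median of -0.35. Beside CD30, BATF3, an AP-1 factor of these cells, fell by 0.72 ± 0.10 (adjusted p = 2.75e-04), and TNFRSF9, the 4-1BB receptor, by 0.88 ± 0.12 (adjusted p = 2.16e-04). GATA3, a T helper transcription factor found in Hodgkin cells, rose by 0.52 ± 0.12 (adjusted p = 0.00606; 0.0949 under median scaling), and MET, the hepatocyte growth factor receptor, by 1.08 ± 0.26 (adjusted p = 0.00653) from above background on 1 control array to 3 givinostat arrays. FUT4, which makes CD15, and FSCN1, the fascin gene, were not called at -0.20 ± 0.14 (adjusted p = 0.298) and 0.11 ± 0.12 (adjusted p = 0.496).

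JAK-STAT genes also had more falls than rises, with 10 lower and 4 higher of 25 and a median of -0.19. STAT5A read 13.03, 12.91 and 12.95 in control and 11.77, 12.01 and 11.89 with givinostat, a fall of 1.07 ± 0.10 (adjusted p = 1.34e-05). CISH, a feedback inhibitor induced by STAT5, fell by 0.90 ± 0.10 (adjusted p = 3.76e-05), BCL6, a germinal centre repressor, by 1.11 ± 0.09 (adjusted p = 5.20e-06), and JAK3, the kinase of the common gamma chain, fell at least 1.45-fold, to background on every givinostat array.

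Cytokines, chemokines and their receptors were mixed. Of 24 cytokine and chemokine genes 5 were higher and 7 lower. CXCL10, a chemokine for T cells, read 10.42, 10.73 and 10.64 in control and 12.57, 12.44 and 12.39 with givinostat, a rise of 1.87 ± 0.12 (adjusted p = 5.38e-07), and IL26, a cytokine of the IL10 family, rose by 1.66 ± 0.14 (adjusted p = 5.24e-06). IL6 and LIF, which signal through gp130, fell by 1.25 ± 0.15 (adjusted p = 9.39e-05) and 1.28 ± 0.13 (adjusted p = 2.56e-05). Among 29 cytokine receptor genes 9 were higher and 6 lower (6 and 6 under median scaling), with CRLF2, the TSLP receptor, at 1.81 ± 0.26 (adjusted p = 2.85e-04). IL27RA, the receptor of IL27, read 11.92, 11.89 and 11.98 in control and 10.29, 10.29 and 10.48 with givinostat and was among the 15 largest falls. TGFBR2 rose by 0.94 ± 0.11 on the probe used, but its 3 probes ranged from -0.54 to 0.94.

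Of 15 chemoattractant receptor genes 4 were higher and 4 lower, and the 3 largest rises started from background. CCR2, the receptor of monocyte chemoattractants, was at least 2.57-fold higher, GPR15, a homing receptor of T cells, at least 3.20-fold and CCR1 at least 1.54-fold, each above background on 0 control and 3 givinostat arrays. CXCR4, the receptor of CXCL12, fell by 0.88 ± 0.11 (adjusted p = 7.88e-05).

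Antigen presentation genes of class I leaned lower, with 6 lower and 0 higher of 17, all of them genes of peptide supply or loading. PSMB10 and PSMB9, subunits of the immunoproteasome, fell by 0.94 ± 0.10 (adjusted p = 2.89e-05) and 0.60 ± 0.10 (adjusted p = 9.82e-04), and TAP1, the peptide transporter, by 0.69 ± 0.10 (adjusted p = 2.07e-04). The heavy chain genes HLA-B, HLA-C, HLA-E, HLA-F and HLA-G and the light chain gene B2M, named after their values were seen, had log2 changes of -0.11, 0.17, 0.15, 0.08, -0.06 and 0.04, and none was called. Class II genes had 2 higher (10%) and 3 lower (15%) of 20, against 17.6% and 15.7% of all genes. RFX5, a promoter factor of these genes, changed by -0.51 ± 0.10 (adjusted p = 0.00255) and HLA-DOA by 0.65 ± 0.11 (adjusted p = 6.53e-04). RFXAP fell by 0.91 ± 0.09 on the probe used but its other probe gave 0.15, and the call was lost on the mean of its probes (adjusted p = 0.0695).

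Interferon response genes had no single direction: of 47, 12 were higher and 7 lower with a median of -0.09, and under median scaling 9 were higher and 10 lower. The largest rises beside CXCL10 were RSAD2, which encodes viperin, at 1.49 ± 0.13 (adjusted p = 8.94e-06), IFI27 at 1.14 ± 0.16 (adjusted p = 2.66e-04) and OASL at 1.12 ± 0.14 (adjusted p = 1.03e-04). IDO1, which degrades tryptophan and restrains T cells, read 4.95, 6.64 and 5.43 in control and 7.75, 7.83 and 7.79 with givinostat, a rise of 2.12 ± 0.33 (adjusted p = 5.17e-04), with control B above background.

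Immediate early genes and targets of the ERK pathway had 9 higher and 3 lower of 23. EGR1, a zinc finger factor induced within minutes by growth factors, read 7.22, 7.18 and 6.71 in control and 9.54, 9.35 and 9.12 with givinostat, a rise of 2.30 ± 0.20 (adjusted p = 7.07e-06). FOS rose by 1.77 ± 0.27 (adjusted p = 3.74e-04), PHLDA1 by 1.68 ± 0.13 (adjusted p = 2.36e-06), and DUSP4, a phosphatase of ERK, was at least 2.08-fold higher from background. CAV1, the caveolin gene, outside these lists, read 11.11, 11.10 and 10.82 in control and 12.59, 12.69 and 12.47 with givinostat.

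Apoptosis genes showed a few large changes within lists near the background. Of 19 BCL2 family genes 4 were higher and 2 lower (3 and 3 under median scaling). BMF, which encodes a BH3-only activator of cell death, read 7.55, 7.77 and 7.30 in control and 9.47, 9.22 and 9.31 with givinostat, a rise of 1.79 ± 0.15 (adjusted p = 7.07e-06). BID, which links death receptors to mitochondria, fell from 9.61, 9.77 and 9.96 to 8.82, 8.53 and 8.73 (-1.09 ± 0.11, adjusted p = 2.45e-05). BCL2L11, the gene of the BH3-only protein BIM, changed by 0.37 ± 0.21 (adjusted p = 0.199) on the probe used and by 1.34 on its other probe. TNFSF10, the death ligand TRAIL, rose by 1.01 ± 0.13 (adjusted p = 1.56e-04) and CFLAR, an inhibitor of caspase 8, fell by 0.76 ± 0.10 (adjusted p = 1.95e-04).

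Genes of B cell identity shifted in both directions. Of 16 B lineage genes 4 were higher and 6 lower; beside IGLL1 and BCL6, SPIB, an ETS factor of B cells, fell from 10.25, 10.30 and 9.95 to 9.06, 8.93 and 9.09 (-1.14 ± 0.18, adjusted p = 5.54e-04), and PRDM1, the regulator of plasma cell differentiation, rose by 1.01 ± 0.10 (adjusted p = 1.37e-05) on each of 4 probes by 1.01 to 1.15. Of 14 T lineage genes 6 were higher and 1 lower, and 3 and 1 under median scaling, with medians of 0.07 and 0.01. GZMB, the granzyme B gene, went from 7.36, 7.30 and 7.22 to 8.43, 8.49 and 8.64 (1.23 ± 0.15, adjusted p = 9.60e-05), and MAF, a T helper transcription factor, rose by 1.23 ± 0.14 (adjusted p = 5.43e-05).

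Genes of germ cells, which most somatic cells keep silent, entered the test in small number. Of 53 genes on the cancer-testis and germline list 11 were tested, and 7 of these were higher and 0 lower, with a median of 0.59; a gene that entered only through a treated group had to differ, so the count supports nothing beyond its members. PIWIL2, a germline Argonaute protein gene, read 6.77, 7.11 and 5.94 in control and 9.17, 8.81 and 8.89 with givinostat, a rise of 2.35 ± 0.35 (adjusted p = 3.63e-04). SPANXA1, which has near-identical copies on the X chromosome, was at least 1.39-fold higher, and TEX15 and TEX14, needed for meiosis and germ cell bridges, rose by 0.77 ± 0.12 (adjusted p = 5.90e-04) and 0.73 ± 0.14 (adjusted p = 0.00159).

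The metallothionein, glycolysis and hypoxia, and redox defence lists held more rises than falls, in numbers that depended on the scaling. Of 19 metallothionein and zinc transport genes 9 were higher and 1 lower (5 and 2 under median scaling), with MT1X, a metal-binding protein gene, going from 13.44, 13.82 and 13.44 to 14.74, 14.86 and 14.56 (1.16 ± 0.14, adjusted p = 9.38e-05); metallothionein genes are alike in sequence, so their probes may not be specific. Of 32 glycolysis and hypoxia genes 9 were higher and 3 lower (5 and 3 under median scaling): NDRG1, a hypoxia-induced gene, rose by 1.32 ± 0.15 (adjusted p = 4.99e-05), while SLC2A1, the GLUT1 glucose transporter, fell by 1.13 ± 0.10 (adjusted p = 1.06e-05). TXNIP, which restrains thioredoxin and glucose uptake, went from 9.37 on control arrays A and B and 9.40 on C to 10.44, 10.47 and 10.6 (1.13 ± 0.16, adjusted p = 2.22e-04). Of 39 redox defence genes 11 were higher and 5 lower (6 and 5 under median scaling, where the median went from 0.12 to 0.00), with the glutathione transferase GSTA4 at 1.39 ± 0.11 (adjusted p = 2.49e-06).

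Genes often taken as stable references were called less often than all genes, though not all were stable. Of 37 housekeeping genes 2 were higher (5.41%), 5 lower (13.5%) and 30 not called, against 17.6% higher and 15.7% lower over all genes. REEP5, an endoplasmic reticulum shaping protein gene, rose by 1.03 ± 0.08 (adjusted p = 4.65e-06). ACTB changed by 0.01 ± 0.07 (adjusted p = 0.957) and GAPDH by -0.02 ± 0.07 (adjusted p = 0.844). Their signals, 16.03 to 16.06 for ACTB and 15.87 to 15.96 for GAPDH, lie near the top of the range of these arrays, where a change may not be seen.

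Promoter composition was described over the called genes. Of the 10529 genes 8661 (82.3%) matched a promoter by symbol, as did 1520 of 1856 called higher (81.9%) and 1357 of 1653 called lower (82.1%). For the genes changed at least 2-fold the check is void, because 79.5% of those higher and 78.3% of those lower have an entry, under the 80% asked for. The ETS site CCGGAAG, on either strand, was found in 11.8% of promoters of genes called higher, 21.1% of those called lower and 21.5% of those not called, against 10.7% of all promoters in the table. Among genes above background on all 6 arrays the shares were 12.9%, 21.5% and 22.4%, so they kept that order without the genes that entered from background. The E-box CACGTG was found in 8.82% of promoters of genes called higher, 13.6% of those called lower and 9.75% of those not called, and in 7.43% of all promoters. The ratio of observed to expected CpG exceeded 0.6 in 76.8%, 85.0% and 82.4% of the same classes. GC boxes (70.0%, 67.8% and 68.1%) and TATA boxes (6.25%, 5.75% and 5.96%) varied less. No motif of the set contains another, and no test was run on these shares.

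**Figure D4:**
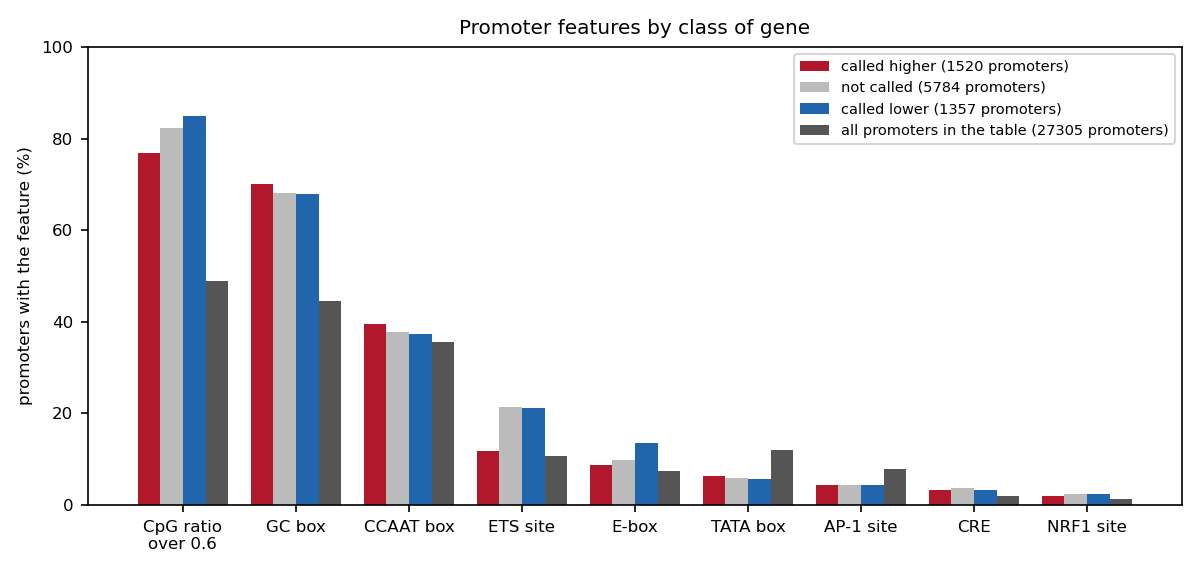
Share of promoters (%, 300 bases around the start) with each feature among genes called higher (red), not called (light grey) and called lower (blue), and among all promoters of the RefSeq table (dark grey). ETS sites stand at 11.8% for genes called higher and 21.1% for genes called lower, E-boxes at 8.82% and 13.6%, and GC boxes at 70.0% and 67.8%.

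The givinostat response could be read a second time in cells that also received sorafenib, where the 3 combination arrays were set against the 3 sorafenib arrays. This comparison shares no array with givinostat against control, though it shares the estimate of spread. It called 3720 genes (35.3%), 1873 higher and 1847 lower. Sorafenib array C stood farther from its group than any other array (root mean square deviation 0.221, others 0.147 to 0.175), and without it 3501 genes were called there. Of the 341 genes at least 2-fold higher with givinostat alone, 340 moved in the same direction with sorafenib present and 327 (95.9%) were called in it. Of the 115 at least 2-fold lower, 113 had the same direction and 107 (93%) were called. Of the 341 rises 70 were above background on 3 givinostat and 0 control arrays, and 7 of the 115 falls showed the reverse. Where such a gene entered only through groups with givinostat, or only through groups without it, the filter partly fixed its direction here. For the genes called at any size the direction held in 1787 of 1856 (96.3%) and 1571 of 1653 (95%), and in 4808 of 7020 genes not called (68.5%).

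Among the leading genes the size of the change was often close in the 2 settings. COXFA4L3 rose by 3.17 ± 0.12 with sorafenib present (3.28 without), SGSM1 by 2.91 ± 0.11 (3.09), CDKN1A by 1.87 (1.91), and MOK had log2 changes of -1.82 and -1.81. EGR1 had log2 changes of 1.09 with sorafenib and 2.30 without, a difference not called in the interaction test across all genes. EGR1 read 6.56, 5.75 and 6.17 on the sorafenib arrays, where 1 was above background, and 7.37, 7.27 and 7.10 on the combination arrays. SELENOP read 6.41, 7.03 and 6.44 on the sorafenib arrays, all above background, and 10.08, 10.13 and 10.25 on the combination arrays.

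The difference between the 2 givinostat changes was called in 2 genes (0.019%), with 1150 genes at an unadjusted p under 0.05. GPR15 had log2 changes of 1.92 without and 0.47 with sorafenib, a difference of -1.45 ± 0.17 (adjusted p = 0.0148). It read 5.81, 5.97 and 6.19 in control, 7.95, 7.93 and 7.87 with givinostat, 5.32, 5.44 and 5.56 with sorafenib and 6.06, 5.94 and 5.74 with the combination, and it was above background on the 3 givinostat arrays alone, so it entered the test through that group alone. Its change with sorafenib lies between groups at background, its change without is bounded at 3.20-fold, and the direction of the difference was set by that filter. RRAD, a Ras-related GTPase gene, fell by 1.73 without and by 0.82 with sorafenib (log2 changes of -1.73 and -0.82), a difference of 0.92 ± 0.12 (adjusted p = 0.0330). It read 11.91, 11.95 and 11.98 in control, 10.2, 10.19 and 10.25 with givinostat, 11.16, 11.31 and 11.15 with sorafenib and 10.28, 10.4 and 10.48 with the combination, so the arrays with givinostat lay near each other and those without it differed. The count of 2 fell to 0 without control A, any single givinostat array, sorafenib C, combination B or combination C, and to 1 without control C, sorafenib A or combination A. Without control B it stayed at 2, but both differences were then negative. RRAD, the only positive difference called, lost its call without any single array except sorafenib B. TLE2, CAV1 and TNFRSF21 had the next smallest p and were not called (adjusted p = 0.106 each).

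**Figure D5:**
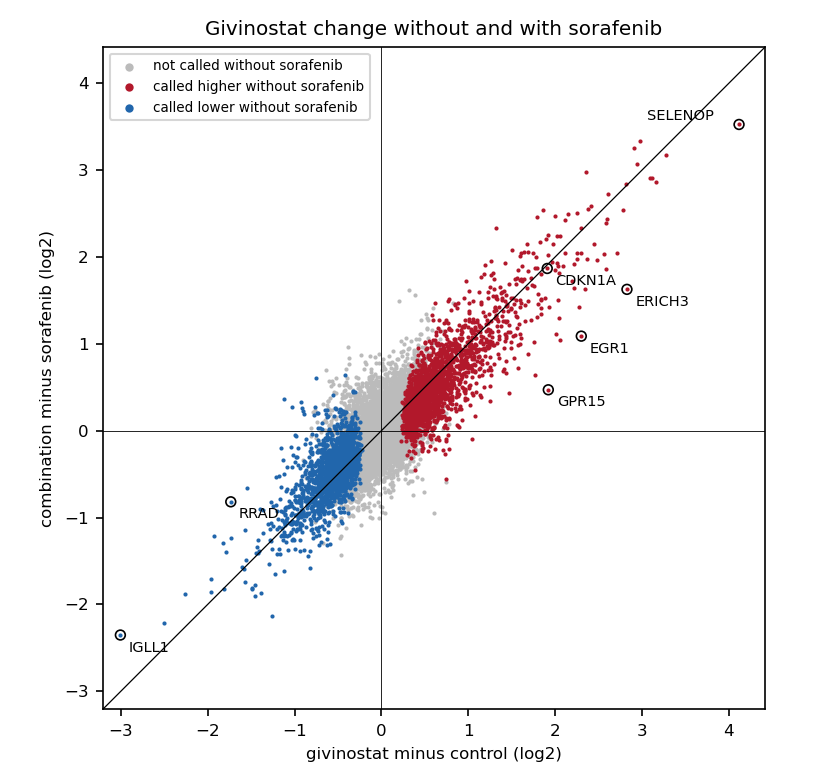
Each point is a gene: its change with givinostat alone (givinostat minus control, log2, horizontal) against its change with sorafenib present (combination minus sorafenib, log2, vertical), coloured by its call without sorafenib, with the line of equal change. Most called genes lie in the quadrants of equal direction, and RRAD (-1.73 and -0.82) lies off the line, as does GPR15, which was at background in all groups but givinostat alone.

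Calls were spread over all chromosomes, with uneven balance. On chromosome 6, of 611 genes 22.6% were higher and 11.5% lower, and on the X chromosome, of 345 genes 20.6% and 9.57%. On chromosome 22, of 259 genes 10.4% were higher and 19.3% lower, and on chromosome 17, of 641 genes 14.2% and 21.2%. These shares have no test, and genes of a chromosome differ in length, signal and GC content.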

How the data were processed

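The arrays were Illumina HumanHT-12 V3 bead arrays, extracted with BeadStudio per the labels. Per the file headers, the authors deposited a mean intensity for each of 48803 probes and array, without normalization, and a detection value between 0 and 1, a fraction from the deposited table that equals 1 minus the detection p. A processed table of the same arrays served as an alternative. Intensities were background-corrected here with normexp and the detection values (offset 16), normalized by quantiles and expressed as log2 with limma 3.58.1 (R 4.3.3). A probe entered when above background (detection p under 0.05) on all 3 arrays of at least 1 of the 4 groups, and the brightest stood for its gene, leaving 10529 genes. lmFit and eBayes were fitted to 4 group means over all 12 arrays, with two-sided tests and Benjamini-Hochberg adjustment. The number of arrays limits the precision. The normalization makes every change relative to the other genes.

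Probe symbols came from the platform annotation and were updated through RefSeq; 28098 probes had 1 symbol, 13 several and 20692 none. Of 69 gene lists, those with results of use here are described. Named genes are the 15 largest rises and falls without overlap, up to 4 called members of each list by size, the deacetylase genes and a few fixed genes, and the 5 smallest p of the interaction. Promoters shown are those with a table entry, chromosome 8 left out. The members, lists and rule were chosen with earlier results of these data known. Whether the letters A, B and C pair the arrays was not settled, and the main fit left the letter out. Deviations of same-lettered control and givinostat arrays correlated at 0.0407, 0.18 and 0.255. Those of control and givinostat arrays with different letters correlated at -0.238 to 0.0751. The fit was tested on simulated data. Leaving out arrays, other background, scaling, filter, probe and prior settings and the letter as a block were the alternatives.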

Additional observations from a re-analysis of the deposited data

Results flagged for a closer look

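GPR15 was picked out by the interaction test, where the log2 change with sorafenib minus that without was -1.45 ± 0.17. The gene was at background on every control, sorafenib and combination array and entered the test through the 3 givinostat arrays, so the direction was set by the filter and the size is measured against background. RRAD was picked out by the same test, with a difference of 0.92 ± 0.12, its fall being smaller with sorafenib. It was above background on all 12 arrays. Its call was lost on leaving out any single array except sorafenib B. The call was also lost under median scaling, without a detection filter, on the probe mean and with the letter as a block.

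Probes that could not be tied to exactly 1 gene symbol were left out of the comparison. Of 2888 such probes above background, 654 (22.6%) were called in givinostat against control with limma, 353 higher and 301 lower, and 92 of the higher and 33 of the lower ones changed at least 2-fold. The share was 33.3% among named genes.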

How the results depend on the processing

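Over the planned settings 2994 to 3978 genes were called in givinostat against control, and 2865 to 3881 when single arrays were left out (2-fold 454 to 481). With sorafenib present the ranges were 2862 to 4043 and 2919 to 3696. Genes changed at least 2-fold numbered 147 without background correction, 148 on the authors' processed table and 303 on probes detected on all 12 arrays, against 456. The 2 interaction calls became 8 without background correction and on the processed table, 1 under median scaling, no detection filter, probes detected on all 12 arrays or the probe mean, 16 with an intensity-trend prior, and 0 to 2 when arrays were left out. With the array letter as a replicate block 3559 genes were called, 456 at least 2-fold, and 0 in the interaction. Whether the letters pair the arrays was not settled. Median scaling called 1106 genes higher and 1996 lower. NDUFB4 reversed, to 0.0547, on probes detected on all 12 arrays; the cause was not tested. Of the 288 named genes, 20 lost their call under median scaling and 16 without a detection filter. Leaving out 1 of the 6 compared arrays lost 19 to 29 calls, most without control B (29) and givinostat C (26). Leaving out the 6 sorafenib and combination arrays in turn was chosen after seeing the data. Folds of dim genes are limited by signal over background.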

Other observations

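Surface genes read by T and natural killer cells had members in both directions. Of 21 immune checkpoint and costimulatory genes 3 were higher (14.3%) and 4 lower (19%), near the 17.6% and 15.7% of all genes. CD83, a maturation marker of antigen-presenting cells, changed by -0.86 ± 0.10. CD47, the signal that restrains phagocytes, had a log2 change of 0.50 ± 0.08, a call lost under median scaling. MICA and ULBP1, ligands of the NKG2D receptor, rose by 0.63 ± 0.14 and 0.62 ± 0.13. Of 8 natural killer ligand genes tested 3 were higher (37.5%, against 17.6% of all genes) and 0 lower. The other gene called, NECTIN2, was at background on every control array, and its call was lost without givinostat A or givinostat B. With sorafenib present NECTIN2 changed by 0.04.

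Amino acid and polyamine genes were also mixed. Of 25 integrated stress and amino acid response genes 5 were higher (20%) and 7 lower (28%), against 17.6% and 15.7% of all genes. SLC1A4, a neutral amino acid transporter gene, rose by 1.28 ± 0.10. SAT1, which starts polyamine breakdown, rose by 0.99 ± 0.09, while 2 of 19 arginine and polyamine genes were higher (10.5%) and 4 lower (21.1%). Of 26 Notch and Wnt pathway genes 5 were higher (19.2%) and 3 lower (11.5%), with a median of 0.02, so the list had no clear direction. The Wnt receptor gene FZD2 rose by 1.20 ± 0.16 and the feedback gene AXIN2 by 0.89 ± 0.12. HEY1 was called lower, at -0.70 to -0.66 when single arrays were left out. Of 11 fibroblast, endothelial and epithelial genes 2 were higher (18.2%) and 5 lower (45.5%), against 17.6% and 15.7% of all genes. KRT7, a keratin of simple epithelia, fell by 1.00 ± 0.10, and ELF3, an epithelial ETS factor gene, by 1.04 ± 0.21. COL1A1 went the other way, at least 2.09-fold higher from background on every control array.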
